A study of Homo sapiens with 14 samples.

Results

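The cytosolic ribosomal protein genes were followed across all 14 RNA-seq libraries of 2 human myeloid leukemia cell lines, PLB-985 and HL-60. Both mature towards neutrophil-like cells in medium with DMSO. The paper classes the former as a sub-line of the latter and reports that their genotypes were identical. Genes were taken by name: every row with an NCBI gene ID whose symbol is RPL or RPS followed by a number and at most 1 letter A, X or L, and RPLP0, RPLP1, RPLP2 and RPSA. This gave 81 of the 37466 rows with an NCBI gene ID, 49 of the large and 32 of the small subunit. The rule itself uses names and no measured value. The names cover the proteins of the cytosolic ribosome apart from a few with other symbols, such as FAU, whose protein is cut from a fusion with a ubiquitin-like sequence, and the scaffold protein RACK1, which are described below within other lists. An H2B-mCherry transgene was present in the PLB-985 cells. The paper names none for the HL-60 cells used, so line and reporter cannot be told apart in any comparison of the lines. There were 2 replicates of each line in 3 states: undifferentiated (9% FBS), on day 6 of 1.3% DMSO (9% FBS), and on day 6 of 1.3% DMSO plus 2% Nutridoma-CS (0.5% FBS). As Nutridoma replaces serum, the last state also has less serum than the DMSO state. Day 2 and day 4 of the Nutridoma protocol were covered by 1 PLB-985 library each, which entered no test. The neutrophil markers fixed for the cell types (FPR1, CSF3R, ITGAM, S100A8, S100A9, NCF1, CYBB and MMP9) summed to between 261 and 565 normalized FPKM in the undifferentiated libraries and to between 9807 and 20480 in the differentiated ones. All 5 erythroid and megakaryocyte markers and 4 of 5 lymphocyte markers were under 1 in every library. The 7 monocyte and macrophage markers summed to at most 8.16 before and 598 after differentiation and the 5 of eosinophils and basophils to at most 797 and 2268, and the part of such cells in the results was not tested.

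Ribosomal proteins bind ribosomal RNA to build the small subunit, which reads the mRNA, and the large subunit, which joins the amino acids. Their mRNAs are among the most abundant in growing cells and typically begin with a C followed by a tract of pyrimidines, the 5′ terminal oligopyrimidine (TOP) motif, through which translation follows nutrient and growth signals by way of mTOR and LARP1. Neutrophil precursors stop dividing and lower ribosome production as they mature. The sequences at the start of 8 members are shown because these genes stand at both ends of the response described below: RPLP0, RPSA, RPL35 and RPS19 had large decreases on day 6, and RPS27, RPL31, RPL41 and RPS27L small ones. Each line gives the RefSeq promoter sequence on GRCh38.p14, 40 bases before the annotated start and 20 from it, 5′ to 3′ on the gene's strand. Capitals mark the longest run of C or T that touches the 5 bases on either side of the start, where it has at least 6 bases.
RPLP0 (chr12:120201092-120201151, minus strand): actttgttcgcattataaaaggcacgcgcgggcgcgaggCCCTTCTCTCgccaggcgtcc
RPSA (chr3:39406680-39406739, plus strand): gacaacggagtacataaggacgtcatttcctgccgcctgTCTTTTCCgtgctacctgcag
RPL35 (chr9:124861938-124861997, minus strand): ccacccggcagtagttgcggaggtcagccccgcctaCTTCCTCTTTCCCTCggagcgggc
RPS19 (chr19:41860215-41860274, plus strand): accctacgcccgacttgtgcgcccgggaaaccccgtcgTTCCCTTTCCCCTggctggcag
RPS27 (chr1:153990722-153990781, plus strand): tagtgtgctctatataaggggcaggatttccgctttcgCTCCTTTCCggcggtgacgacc
RPL31 (chr2:101002249-101002308, plus strand): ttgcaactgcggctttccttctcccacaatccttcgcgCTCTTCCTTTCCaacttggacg
RPL41 (chr12:56116593-56116652, plus strand): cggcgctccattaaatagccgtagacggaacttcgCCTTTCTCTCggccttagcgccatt
RPS27L (chr15:63157458-63157517, minus strand): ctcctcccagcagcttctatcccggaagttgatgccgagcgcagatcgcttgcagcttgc

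Such a run lay at the start in 7 of the 8 sequences and was found both in genes with large and in genes with small decreases. RPS27L, a paralog of RPS27, had none. In the RefSeq windows of 300 bases (250 before the start and 50 after it), 64 of the 81 members were matched by symbol, with 79 windows because 10 genes have several starts. Of these windows, 57 (72.2%) had the run, against 22.1% of the 35037 other windows. At least 1 window with the run was present in 53 of the 64 members. The tested members without it had log2 fold changes from −1.40 (RPL3) to −0.20 (RPS27L) with DMSO in PLB-985 cells. The first base was C in 64.6% of the members' windows and in 14.6% of the others. The letters CCGGAAG, a match to the core bound by ETS-family factors, were present on either strand in 34.2% of the members' windows and in 10.2% of the others, AAGATGGC, which overlaps the YY1 motif, in 7.59% and 2.88%, and TATAAA in 7.59% and 11.5%. These are matches of letters, not measured sites.

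Before differentiation the 81 genes took more than 25% of all FPKM (fragments per kilobase of transcript and per total of mapped fragments, a level per transcript length). In undifferentiated PLB-985 cells they took 25.89% in replicate 1 and 30.69% in replicate 2, and in undifferentiated HL-60 cells 25.34% and 25.74%. After 6 days with DMSO the share was 17.41% and 17.81% in PLB-985 cells and 15.07% and 16.28% in HL-60 cells. With DMSO and Nutridoma it was 13.72% and 17.09% in PLB-985 cells and 14.14% and 16.69% in HL-60 cells. No day-6 library reached the lowest undifferentiated one. The share is relative to the other RNA of a library. In RNA from whole cultures, fewer cells of a type and less RNA per cell cannot be told apart. Mitochondrially encoded genes, which enter the same total, took a mean of 4.22% ± 2.29 (SD, n = 2) in undifferentiated PLB-985 cells and 8.95% ± 5.17 (SD, n = 2) after DMSO, and their part in the change of the share was not tested.

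**Figure D1:**
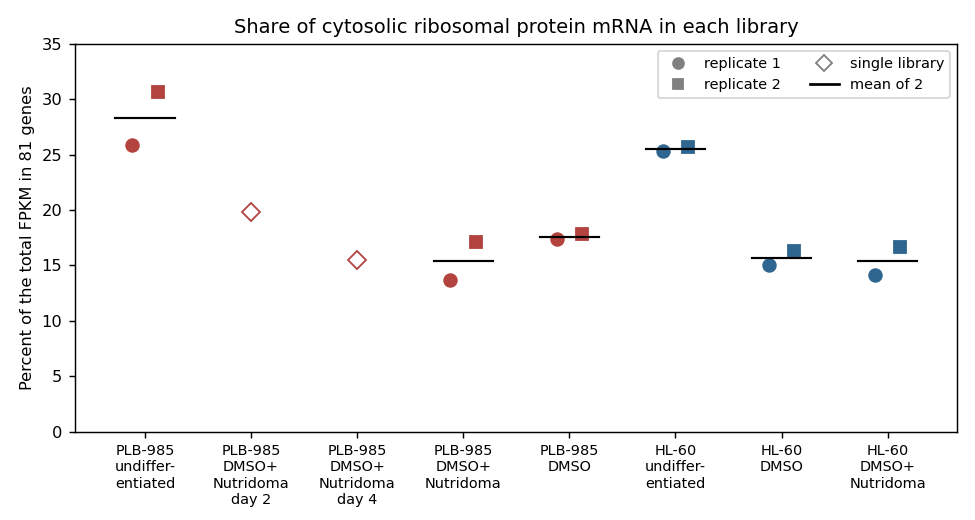
Percent of the total FPKM of each library (y axis) that fell on the 81 cytosolic ribosomal protein genes, by group (x axis). Circles and squares are replicates 1 and 2, diamonds the single day-2 and day-4 libraries and bars the mean of 2; all undifferentiated libraries lie above 25% and all day-6 libraries below 18%.

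Levels below are the authors' normalized FPKM, in which a set of uniformly expressed genes is used to scale the libraries. A test was run for the 78 of 81 genes that reached 1 normalized FPKM in 2 or more of the 12 replicated libraries, and 61 of these 78 had a mean of 1000 or more over the 12 libraries. The highest means were those of RPS27 (5004), RPS24 (4323), RPS3 (3481), RPL27A (3252) and RPL4 (3237). RPS27L (31.8) and RPS26 (135) were the lowest of the tested members, followed by RPL22 (539). The untested members were RPL39L, RPL3L and RPL10L, retrogene-like or tissue-restricted copies of RPL39, RPL3 and RPL10. RPL39L was listed at 0 in 7 of the 14 libraries and reached 0.609 at most, in replicate 1 of undifferentiated HL-60 cells. RPL3L and RPL10L were each listed at 0 in 13 libraries, with 0.0464 and 0.00985 in the remaining one. All 3 stayed under 1 in every library, so the major copies RPL39, RPL3 and RPL10, at means of 705, 1362 and 1189, made up nearly all of the listed level of each pair.

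The first comparison asked how the genes differ between undifferentiated cells and cells after 6 days with DMSO. In PLB-985 cells 74 of the 78 tested members fell and none rose, with a median log2 fold change of −1.01, a 2.01-fold lower level. In HL-60 cells 76 of 78 fell and none rose, with a median of −1.07 (2.10-fold lower). Tests were two-sided, with limma on log2 of the normalized FPKM plus 1, with a term for the replicate number, and Benjamini-Hochberg adjustment over all 13778 tested rows, with a threshold of 0.05. Of all tested rows, 35.8% were lower and 24.6% higher in PLB-985 cells, and 34.7% were lower and 26.0% higher in HL-60 cells, with medians of −0.15 and −0.11. The paper repeated the experiment on 2 days, and the labels do not tie a replicate number to a day. As the replicate number is a term of the model, a shift shared by all libraries of a number is taken out. A p-value measures the spread that is left, pooled over the 6 groups of 2 replicates. With each replicate number taken alone, 77 of 78 members were lower in both numbers in PLB-985 cells and 78 of 78 in HL-60 cells. That count was not made over all 13778 tested rows, of which 7797 and 7507 had a log2 fold change below 0. By subunit, the median was −0.95 over 32 small-subunit and −1.01 over 46 large-subunit genes in PLB-985 cells, and −1.13 and −1.02 in HL-60 cells. Of the 18 proliferation genes fixed as a list (such as MKI67, TOP2A and the MCM genes), 17 fell in each line, with medians of −2.92 and −3.15, and the part of proliferation in the change of the ribosomal protein genes was not tested.

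RPLP0, the P-stalk protein that anchors RPLP1 and RPLP2 at the site where elongation factors bind, had 4797 and 4401 normalized FPKM in the 2 undifferentiated PLB-985 libraries and 1351 and 921 after DMSO. In HL-60 cells it was at 4505 and 3253 before and at 1029 and 690 after. The groups did not overlap in either line, and the log2 fold changes were −2.04 ± 0.16 (SE) and −2.18 ± 0.16, with limma adjusted p of 3e-05 and 2.4e-05. RPL12, which lies at the base of the P stalk, went from 4111 and 4748 to 995 and 983 in PLB-985 cells, and from 3648 and 2647 to 873 and 1008 in HL-60 cells. The decrease was −2.16 ± 0.22 (SE) and −1.73 ± 0.22 on the log2 scale. RPSA, the small-subunit protein that is also known as the laminin receptor, went from 1296 and 2156 to 384 and 503 in PLB-985 cells and from 1441 and 2024 to 447 and 565 in HL-60 cells. Replicate 2 was above replicate 1 in each of its 6 groups, yet no DMSO value reached an undifferentiated one. RPL35, near the exit of the peptide tunnel, had log2 fold changes of −1.71 ± 0.15 (SE) in PLB-985 cells and −1.85 ± 0.15 in HL-60 cells.

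At the other end, RPS27, a zinc-finger protein of the small subunit and the most abundant member, had 5970 and 8536 normalized FPKM in the undifferentiated PLB-985 libraries and 6238 and 6775 after DMSO, so that the groups overlapped. In HL-60 cells it was at 4138 and 4089 before and at 3176 and 3911 after. Its log2 fold changes of −0.14 ± 0.18 (SE) and −0.22 ± 0.18 did not pass the test (limma adjusted p of 0.55 and 0.31). In PLB-985 cells the sign depended on the scaling, with 0.02 for FPKM without the authors' normalization and 0.05 with median-of-ratios factors. RPL31, a protein at the rim of the peptide tunnel exit, did not pass in either line, at −0.29 ± 0.18 (SE) and −0.28 ± 0.18 (adjusted p of 0.2 in both). RPL10, needed for the last step of large-subunit maturation, was at 1446 and 1542 before and 1279 and 1085 after DMSO in PLB-985 cells, where its log2 fold change of −0.34 ± 0.15 (SE) did not pass the test (adjusted p 0.089), and it fell by 0.73 in HL-60 cells. RPL41, which encodes the smallest protein of the ribosome, fell by 0.41 and 0.52 on the log2 scale in the 2 lines, and RPS15, a protein of the head of the small subunit, by 0.50 and 0.80. RPS9, also of the small subunit, had the fifth smallest decrease in HL-60 cells, at −0.57 ± 0.14 (SE).

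**Figure D2:**
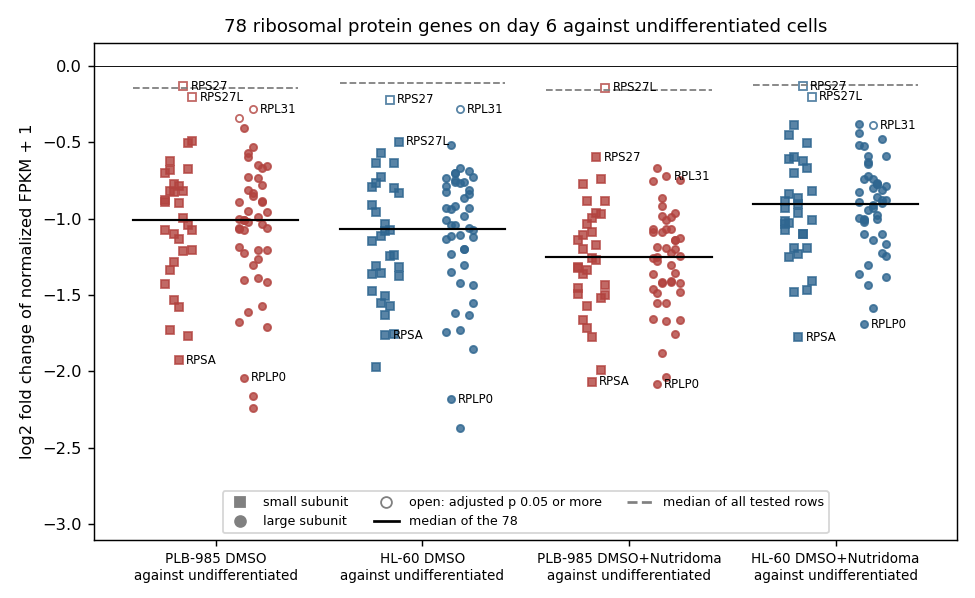
log2 fold change of normalized FPKM plus 1 (y axis) of the 78 tested genes in the 4 day-6 comparisons (x axis), squares for the small and circles for the large subunit, open where the adjusted p was 0.05 or more. Solid bars are the medians of the 78 genes, from −1.25 to −0.90, and dashed bars those of all tested rows, from −0.16 to −0.11; RPLP0 and RPSA are among the 5 lowest and RPS27, RPL31 and RPS27L among the 5 highest in each comparison.

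The same genes stood low and high in both lines. The lines share no library, but as a line and its sub-line they are not independent sources of cells. Across the 78 genes the log2 fold changes with DMSO in PLB-985 and HL-60 cells had a Pearson's r of 0.912 and a Spearman's rho of 0.895. These are given as a description, since genes are not independent replicates and the libraries of a replicate number deviate together. The median absolute difference between the lines was 0.10, under the median SE of a single fold change, and the largest was 0.58, for RPS23. The DMSO response itself was tested for a difference between PLB-985 and HL-60 cells. In this test limma called none of the 78 members and 1.31% of all tested rows, a share at which few calls among 78 would be found. The members' smallest adjusted p was 0.34. An unadjusted p under 0.05 was reached by 1 member and by 1688 of all 13778 rows. The size of the decrease did not follow the level: across the 78 genes Pearson's r with the log2 mean level was −0.06 for PLB-985 and 0.01 for HL-60 cells.

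**Figure D3:**
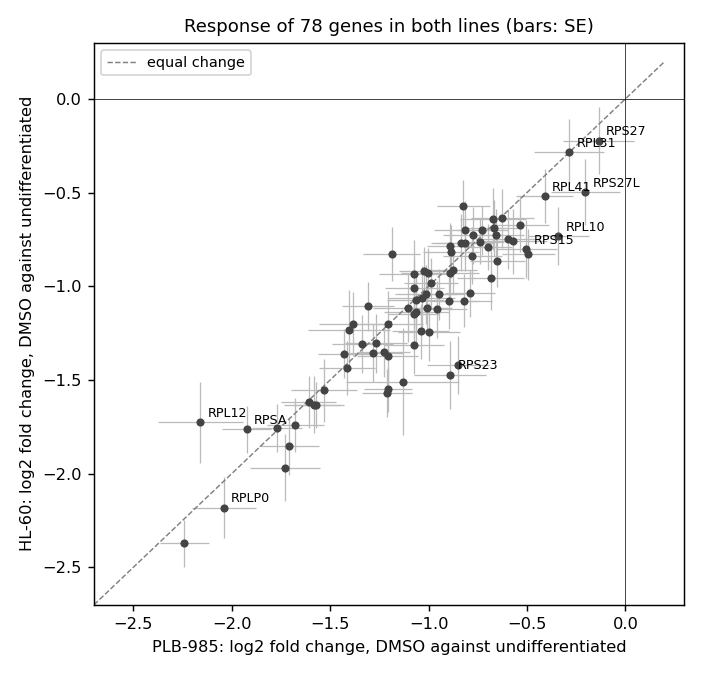
log2 fold change after 6 days with DMSO in PLB-985 cells (x axis) and in HL-60 cells (y axis) for the 78 tested genes, with bars for the SE and a dashed line for equal change. The points lie along the line, with RPLP0 (−2.04 and −2.18) near its lower and RPS27 (−0.14 and −0.22) at its upper end.

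Members known for roles beyond the structure of the ribosome fell to different extents. RPL5 and RPL11 bind the 5S rRNA together and, when ribosome assembly is disturbed, bind MDM2. RPL5 went from 1919 and 2189 normalized FPKM to 672 and 669 in PLB-985 cells and from 1973 and 1716 to 594 and 606 in HL-60 cells, a log2 fold change of −1.61 ± 0.14 (SE) and −1.62 ± 0.14. RPL11 went from 2661 and 3359 to 1727 and 1674 and from 2727 and 2727 to 1572 and 1788, with −0.81 ± 0.16 (SE) and −0.70 ± 0.16. The 2 partners of the 5S particle thus fell by unequal amounts in both lines, a difference that was not itself tested. RPS19, the gene most often mutated in Diamond-Blackfan anemia, fell by 1.58 and 1.63 on the log2 scale, RPS6, the substrate of S6 kinase, by 1.21 and 1.37, and RPS14, a gene of the commonly deleted region of the 5q− syndrome, by 0.82 and 1.08. RPLP1 and RPLP2, which form dimers on RPLP0, fell by 0.57 and 0.54 in PLB-985 cells and by 0.76 and 0.67 in HL-60 cells, against more than 2 for RPLP0.

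With DMSO and Nutridoma the picture on day 6 was similar. In PLB-985 cells 77 of 78 members fell and none rose (median log2 fold change −1.25), and in HL-60 cells 75 of 78 fell and none rose, with a median of −0.90. Of all tested rows, 35.8% were lower and 24.0% higher in PLB-985 cells, and 33.6% were lower and 25.5% higher in HL-60 cells. The count in HL-60 cells was 58 without replicate 1 of the DMSO and Nutridoma group and between 65 and 75 without any other single library. These comparisons share their undifferentiated libraries with those of DMSO. RPLP0 had 1167 and 1006 normalized FPKM in these PLB-985 libraries and 1207 and 1162 in those of HL-60. RPSA had 324 and 489 and, in HL-60 cells, 401 and 621. RPLP0 and RPSA thus lay below their undifferentiated levels in all 4 libraries. RPS3, a small-subunit protein at the mRNA entry site, was among the 5 largest decreases in HL-60 cells, at −1.48 ± 0.15 (SE), and RPL5 in PLB-985 cells, at −1.88 ± 0.14. RPS27 fell by 0.60 in PLB-985 cells (adjusted p 0.021) and was at −0.14 ± 0.18 (SE) in HL-60 cells (adjusted p 0.54). There the sign turned without replicate 1 of the undifferentiated cells (0.075) or without replicate 1 of the Nutridoma group (0.043). RPL23, a large-subunit protein, and RPS9 were also among the 5 smallest decreases in HL-60 cells, at −0.38 ± 0.14 (SE) and −0.39 ± 0.14. In all, 74 members fell in all 4 comparisons by the test, which includes every tested member but RPS27, RPS27L, RPL31 and RPL10. The same count over all tested rows was not made.

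The direct comparison of the 2 protocols on day 6 gave few calls. In PLB-985 cells no member passed the test by limma, against 0.160% of all rows lower and 0.893% higher. The unadjusted p was under 0.05 for 23 of the 78 members and for 1805 of all 13778 rows. The members' median log2 fold change with Nutridoma against DMSO was −0.24 (−0.38 within replicate 1 and −0.08 within replicate 2). In HL-60 cells 7 members rose and none fell, with a median of 0.18 (0.05 within replicate 1 and 0.32 within replicate 2), against 6.61% of all rows lower and 9.86% higher. Among these were RPL12, RPS4X, RPL37, RPL35 and RPS2. RPL12 had 873 and 1008 normalized FPKM with DMSO and 1397 and 1904 once Nutridoma was present. The 2 groups did not overlap, and the log2 fold change was 0.80 ± 0.22 (SE; limma adjusted p 0.043). RPL35 had 0.61 ± 0.15 (SE). RPS4X, RPL37 and RPS2 had 0.62 ± 0.16 (SE), 0.62 ± 0.16 and 0.47 ± 0.13. The count of 7 rested on single libraries: it was 0 without any 1 of the 2 DMSO libraries of HL-60 or without replicate 2 of its Nutridoma group, 1 without an undifferentiated or a Nutridoma library of PLB-985, 11 without an undifferentiated HL-60 library and 12 without replicate 1 of the HL-60 Nutridoma group. It was 1 without the replicate term. In HL-60 cells with DMSO and Nutridoma, the share of the members in the total FPKM was 14.14% in replicate 1 and 16.69% in replicate 2.

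Over both lines together, 2 members fell and 2 rose with Nutridoma, against 6.03% of all rows lower and 9.49% higher. RPL12 was higher by 0.64 ± 0.15 (SE) on the log2 scale, with a limma adjusted p of 0.028. RPLP2 was lower by −0.50 ± 0.10 (SE) and RPL18 by −0.36 ± 0.09, with adjusted p of 0.018 and 0.039. RPLP2 had 2049 and 1664 normalized FPKM with DMSO and 1383 and 1180 once Nutridoma was present in PLB-985 cells, and 1942 and 1642 against 1274 and 1306 in HL-60 cells. Its 4 DMSO values lay above all 4 values with Nutridoma. Against undifferentiated cells, the log2 fold change of RPL12 with Nutridoma was −1.67 for PLB-985 and −0.93 for HL-60 cells, where it was −2.16 and −1.73 with DMSO. Each direction held 0 to 5 members with single libraries left out: 5 fell without an undifferentiated HL-60 library and none without any DMSO library or a PLB-985 Nutridoma library, while 5 rose without replicate 1 of the HL-60 Nutridoma group and none without replicate 2 of DMSO in any line or of PLB-985 with Nutridoma. The effect of Nutridoma was also tested for a difference between PLB-985 and HL-60 cells. There limma called none of the 78, against 0.515% of all rows, and the members' smallest adjusted p was 0.24. Of the 78 members 24 had an unadjusted p under 0.05, and of all 13778 rows 1801 did. The 78 estimates of that difference lay between −0.83 and −0.06. Below 0 were 78 with median-of-ratios factors, 74 for FPKM without the authors' normalization and 37 with the equal sum described next.

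The composition of the ribosomal protein mRNA was examined by scaling every library to the same summed FPKM of the 81 genes, a scaling added after the values were seen. A call then says that a gene fell more or less than the members' sum. Relative to that sum the median of all tested rows was between 0.530 and 0.740, and the calls among all rows are given beside those of the members. With DMSO, 22 members were lower and 21 higher in PLB-985 cells, against 13% and 48.7% of all rows, and 24 were lower and 25 higher in HL-60 cells, against 11.4% and 54.6%. In both lines 19 were lower and 18 higher, and none had opposite calls. Counts of calls shared between comparisons, here and for all 4 comparisons below, were not made over all rows. Under the Nutridoma protocol, 19 were lower and 18 higher in PLB-985 cells (8.62% and 56.9% of all rows) and 18 lower and 18 higher in HL-60 cells (11.2% and 48.5%). Within a line both protocols were set against the same undifferentiated libraries, so their calls are not independent. In all 4 comparisons the same 14 members were lower, among them RPLP0, RPSA, RPL5, RPL35, RPL29, RPS19, RPS18, RPL21, RPL8, RPS3 and RPL17. The same 10 were higher in all 4, among them RPS27, RPL31, RPL41, RPL10, RPLP1, RPL38, RPL36A, RPL28 and RPS20. RPLP0 and RPLP1, partners in the P stalk, thus lay on opposite sides, at −1.04 and 0.43 on the log2 scale relative to the sum in PLB-985 cells with DMSO and at −1.10 and 0.33 in HL-60 cells.

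On day 2 of the Nutridoma protocol most members of PLB-985 cells were already below their undifferentiated level. The members' share of the total FPKM was 19.79% on day 2 and 15.46% on day 4. Of the 78 tested members, 75 were below both undifferentiated libraries on day 2 and 78 on day 4, and 77 were below them in both day-6 libraries. Such counts were not made over all 13778 tested rows, of which 7846 had a day-6 log2 fold change below 0 in this protocol. On day 2, 64 of 78 were still above both day-6 libraries, 13 were between them and 1, RPL23, was below. On day 4, 39 were above, 35 between and 4 below. The 3 not below on day 2 were RPS27, RPL15 and RPS26, and the 1 not below on day 6 was RPS27L. RPLP0 had 2229 normalized FPKM on day 2 and 1776 on day 4, and RPSA 1007 and 407. RPL5 had 790 and 538, and RPL5 and RPSA lay between their 2 day-6 values on day 4, while RPLP0 was above both. RPS27, at 7432 and 5427, lay between the undifferentiated replicates on day 2. The labels do not say which replicate number or culture day the single libraries belong to. Rows named as ribosomal protein pseudogenes took 4.26% of the members' own FPKM on day 2, within the 4.10% to 4.63% of the replicate-2 libraries, and 12.88% on day 4, within the 12.61% to 13.87% of the replicate-1 libraries. Set beside the undifferentiated library of the number they resembled, the median log2 ratio of the 78 members was −0.98 on day 2 and −1.07 on day 4, against −1.26 and −1.27 for the 2 replicates of day 6. By this ratio the 3 members not below both undifferentiated libraries on day 2 were lower as well. RPL15 was at −0.59, RPS26 at −0.43 and RPS27 at −0.20.

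**Figure D4:**
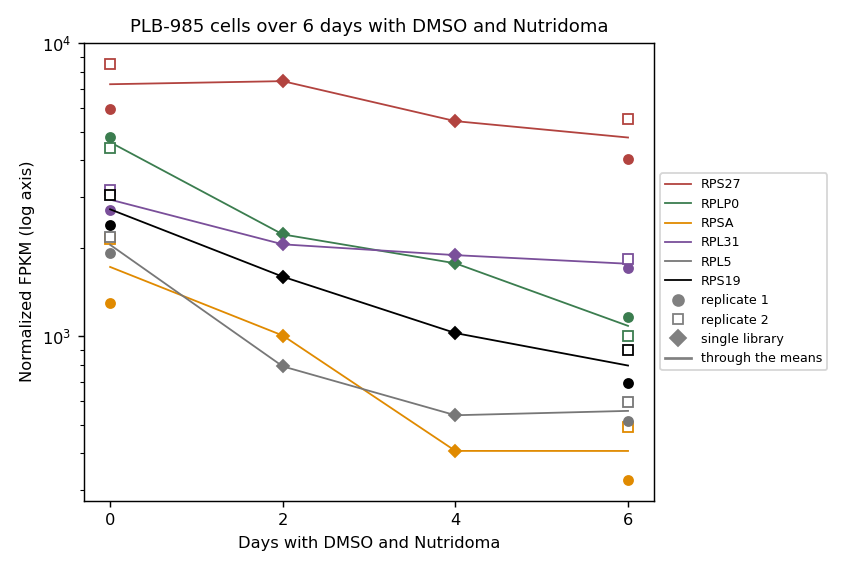
Normalized FPKM (y axis, log scale) of 6 ribosomal protein genes in PLB-985 cells by day of the Nutridoma protocol (x axis); circles and squares are replicates 1 and 2, diamonds the single libraries, and lines run through the means. RPS27 has 5427 on day 4, where RPL5 and RPSA have 538 and 407.

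Most members passed no test between the lines, and the 7 that did in undifferentiated cells lay on chromosomes 8, 1, 5 and 13. There 5 members were higher and 2 lower in PLB-985 than in HL-60 cells, against 7.88% of all rows higher and 6.25% lower. After DMSO 5 were higher and none lower by limma (5.14% and 5.23% of all rows). An unadjusted limma p under 0.05 was found in that state for 15 of the 78 members and for 3401 of all 13778 rows. With DMSO and Nutridoma 4 members were higher and 14 lower (11.2% and 12.8%). RPL8, RPL30, RPS20 and RPL7, all 4 members on chromosome 8, were higher in PLB-985 cells in all 3 states. RPL8, a protein close to the peptidyl transferase center, had 4080 and 4035 normalized FPKM in undifferentiated PLB-985 and 1928 and 1512 in undifferentiated HL-60 cells, a log2 difference of 1.25 ± 0.14 (SE; adjusted p 0.0012). The values did not overlap. RPL30, also a large-subunit protein, had 2721 and 2844 against 1360 and 1123, with 1.17 ± 0.13 (SE). RPS20 and RPL7 differed by 1.14 ± 0.17 (SE) and 1.02 ± 0.14. The count lower in undifferentiated cells was 0 without any 1 of the undifferentiated PLB-985 libraries, and the count higher after DMSO was 3 without replicate 1 of PLB-985 or replicate 2 of HL-60 in that state. The count higher with Nutridoma was 1 without replicate 2 of PLB-985. After DMSO the 4 log2 differences were between 1.02 and 1.27, and with DMSO and Nutridoma between 0.68 and 0.93.

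Other genes of chromosome 8 differed the same way. Over the 357 tested protein-coding rows of chromosome 8 that are no members, the median log2 difference between the lines was 0.84 in undifferentiated cells, 0.73 after DMSO and 0.65 with DMSO and Nutridoma, and 65.6%, 47.6% and 55.2% passed the test as higher. Over all 10790 such rows the medians were 0.03, −0.01 and 0.00. RPS27 on chromosome 1 was higher in undifferentiated PLB-985 cells by 0.80 ± 0.18 (SE) and after DMSO by 0.88 ± 0.18. The 135 other coding rows from 150 to 160 Mb of that chromosome, a window set after RPS27 was seen, had medians of 0.49 and 0.48. With DMSO and Nutridoma RPS27 did not pass, at 0.33 ± 0.18 (SE; limma adjusted p 0.23), where that window had a median of 0.52 and 51.9% of its rows passed as higher. In the lower direction, RPS23 on chromosome 5 had 1104 and 1883 in undifferentiated PLB-985 and 2197 and 3207 in HL-60 cells, a log2 difference of −0.88 ± 0.18 (SE), and RPL21 on chromosome 13 differed by −0.49 ± 0.12. The medians over the 466 and 186 other coding rows of chromosomes 5 and 13 were −0.44 and −0.34. On day 6 with Nutridoma, all 3 members on chromosome 5 (RPS23, RPS14 and RPL37) and RPL21 were lower, at −1.13, −0.50, −0.61 and −1.01, where the other rows of the chromosomes had medians of −0.52 and −0.49. The other 10 members lower in that state lay on other chromosomes, led by RPS12 (−0.80 ± 0.18, SE), and the median over all 78 members was −0.26. This median was −0.079 for FPKM without the authors' normalization and −0.415 without replicate 1 of the HL-60 Nutridoma group. Of the 18 proliferation genes, 16 were higher in PLB-985 than in HL-60 cells in that state, with a median of 1.62, and their part in this result was not tested. That count of 14 was 4 for FPKM without the authors' normalization, 2 without any PLB-985 Nutridoma library or replicate 2 of the HL-60 Nutridoma group, 9 without an undifferentiated PLB-985 library, and 7 and 6 without replicate 1 and 2 of HL-60 with DMSO. Pseudogene rows of RPS23 took 101% of its own FPKM in replicate 1, and those of RPL21 35.8%. Gene copy number was not measured here, and its part in the differences was not tested.

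**Figure D5:**
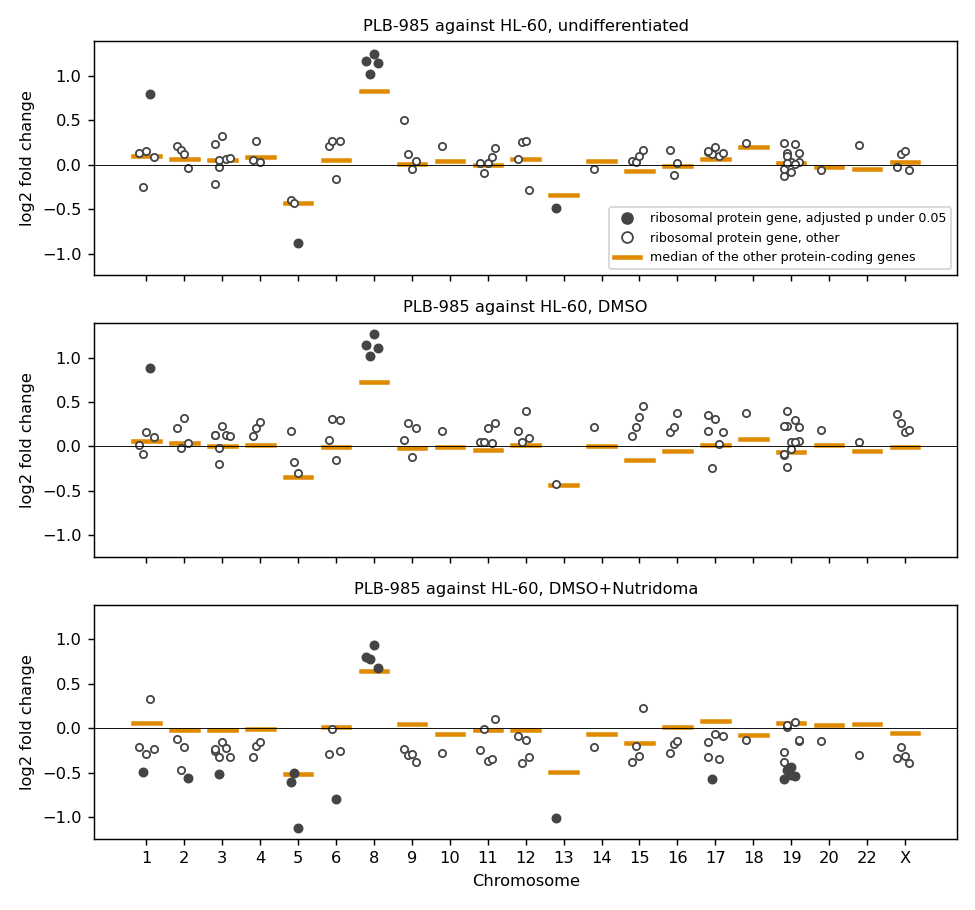
log2 fold change of PLB-985 against HL-60 cells (y axis) for the tested ribosomal protein genes by chromosome (x axis), in undifferentiated cells, after DMSO and with DMSO and Nutridoma; filled points passed the test. Orange bars are the median of the other tested protein-coding genes of the chromosome, at 0.84, 0.73 and 0.65 on chromosome 8, where all 4 ribosomal protein genes passed in each state.

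Of the 4 minor paralogs RPS27L, RPL39L, RPL3L and RPL10L, RPS27L alone was above 1 normalized FPKM. It had 38.9 and 36.5 in undifferentiated PLB-985 cells and 37.2 and 28.6 after DMSO. The groups overlapped, and −0.20 ± 0.17 (SE) on the log2 scale did not pass (limma adjusted p 0.34). It fell by 0.50 in HL-60 cells (adjusted p 0.038). RPS27 was between 100 and 237 times as high as RPS27L over the 14 libraries. With DMSO and Nutridoma RPS27L was at −0.14 ± 0.17 (SE) for PLB-985 and −0.20 ± 0.17 for HL-60 cells, and neither passed (adjusted p of 0.5 and 0.34). The sign turned in PLB-985 cells for FPKM without the authors' normalization (0.05) and with median-of-ratios factors (0.01), and in HL-60 cells without replicate 2 of the undifferentiated cells (0.09).

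Ribosomal proteins that the naming rule leaves out moved in the same direction. Of a list of 6 that includes FAU, RPL22L1, RPL26L1, RPL7L1 and RPL36AL, 5 fell after DMSO in PLB-985 cells and 6 in HL-60 cells. FAU, the precursor of the small-subunit protein eS30, fell by 0.56 and 0.55 on the log2 scale, while the paralog RPL22L1 fell by 1.73 and 1.47. RPL36AL in PLB-985 cells was at −0.03 ± 0.11 (SE; adjusted p 0.81). The 77 mitochondrial ribosomal proteins, which translate the mRNAs of the mitochondrial genome, had medians of −1.30 and −1.31 with DMSO, and 71 of them fell in each line. Of 36 ribosome biogenesis genes 34 fell in each line, with medians of −2.12 and −1.98, lower than those of the ribosomal proteins themselves. Among them NPM1, a nucleolar chaperone, had log2 fold changes of −1.99 and −2.58, NCL (nucleolin) −1.98 and −2.21, and FBL (fibrillarin, a methyltransferase of rRNA) −2.71 and −2.64.

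Of 37 translation factors, 30 fell and 1 rose in PLB-985 cells and 33 fell and 1 rose in HL-60 cells after DMSO, with medians of −0.86 and −1.11. The 1 that rose was TPT1, a translationally controlled protein whose mRNA is also known to begin with a TOP motif, by 1.17 ± 0.17 (SE) and 1.11 ± 0.17 on the log2 scale. The ribosomal scaffold protein RACK1, listed under its older symbol GNB2L1, fell by 0.80 and 1.11. EEF2, the translocation factor, fell by 1.06 and 1.27. EEF1A1, which delivers aminoacyl-tRNA, was at −0.35 ± 0.17 (SE) in PLB-985 cells (adjusted p 0.11) and fell by 0.56 in HL-60 cells. Of 14 growth control genes, 6 fell and 3 rose in PLB-985 cells and 5 fell and 2 rose in HL-60 cells. Of all tested rows, 35.8% were lower and 24.6% higher in PLB-985 cells, and 34.7% and 26.0% in HL-60 cells. The medians of this list, −0.08 and −0.10, were near those of all tested rows, −0.15 and −0.11. MTOR, MAX, MNT and TSC2 passed the test in neither line. MYC, a transcription factor that drives ribosome production, went from a mean of 634 normalized FPKM to 7.96 in PLB-985 cells, and fell by 6.15 and 5.45 on the log2 scale in the 2 lines. LARP1, which binds TOP mRNAs, fell by 1.34 and 1.78 and the translation inhibitor EIF4EBP1 by 2.94 and 2.79, while MXD1, a MAX partner that opposes MYC, rose by 1.48 and 1.74.

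Members differed between the replicate numbers beyond the group effects. Averaged over the 6 groups, RPL23, RPS28 and RPL14 were 1.75, 1.71 and 1.70 times as high in replicate 1 as in replicate 2, and 6 members were more than 1.5 times as high in replicate 2, with RPS26 at a ratio of 0.47. Pseudogene rows are near-identical copies that can take or lose reads of their parent. There were 1021 rows named as ribosomal protein pseudogenes, which took 12.61% to 13.87% of the members' FPKM in the replicate-1 and 4.10% to 4.63% in the replicate-2 libraries. For 18 of the 78 tested members their own pseudogene rows took more than 20% of the parent's FPKM in replicate 1, and for 5 in replicate 2. These rows took 545% of the FPKM of RPL39 in replicate 1 and 115% in replicate 2, 149% and 28.9% for RPS26, and 106% and 13.1% for RPSA, so the levels of these members are uncertain. RPL17 and RPS10 also share exons with listed read-through rows, at up to 60.7 and 52.4 normalized FPKM. For RPS27 and RPLP0 the pseudogene rows took 0.0682% and 8.69% in replicate 1.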

How the data were processed

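Polyadenylated RNA of 14 libraries was read as single ends. The authors used STAR 2.4 for alignment (GRCh38.p5) and Cufflinks 2.2.1 for the deposited FPKM. From these the authors deposited a second table, the log10 of FPKM times 1 factor per library (0.596 to 0.804), from uniformly expressed genes. Its values match a constant of 0.0001 added to every product before the log10, which puts 0 at −4. The table was converted back to normalized FPKM here, with that constant taken off. Read counts were not used here, so the depth behind a value is unknown and no counting interval is given. limma 3.58.1 in R 4.3.3 (lmFit, eBayes with a variance trend) was fitted to log2 of normalized FPKM plus 1, which understates the change of low genes, with 6 groups and the replicate number, over 13778 rows that reached 1 normalized FPKM in 2 or more of 12 libraries, with 5 residual degrees of freedom, in 12 comparisons, each adjusted on its own. The replicate number is a block because the paper states that the experiment was repeated on 2 independent days. That a number marks a day is assumed, as the labels do not say so. The deviations of replicate 1 from its group mean correlated with r of 0.653 to 0.852 over 15 pairs of groups. The members and lists were chosen with earlier results of these data known. Named were the 5 largest and 5 smallest decreases in each day-6 comparison, the 5 largest changes past the threshold in the others, the highest and lowest levels, members at 0 or untested, the paralogs, and RPLP0, RPLP1, RPLP2, RPSA, RPL5, RPL11, RPS6, RPS14 and RPS19; other genes were named after their values were seen, and some genes that the rule takes are not reported here. Lists were the subunits, paralogs, ribosomal proteins outside the rule, translation factors, ribosome biogenesis (EIF6 is in both of these), mitochondrial ribosomal proteins, growth control and proliferation. Alternatives were other scalings, pseudocounts and filters, no variance trend, no replicate block and each library left out. Positions are from GENCODE 44 and promoters from RefSeq (GRCh38.p14). Python 3.11.15 with pandas 2.3.3 and matplotlib 3.10.9 was used for summaries and figures.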

Additional observations from a re-analysis of the deposited data

How the results depend on the processing

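The counts of members that fell on day 6 kept within 1.5 times of their value with other scalings, pseudocounts, filters and fits, and none rose in these. With each library left out in turn, 64 to 75 fell in PLB-985 and 72 to 76 in HL-60 cells with DMSO, 74 to 77 and 58 to 75 with DMSO and Nutridoma, and 0 rose. Scaled to an equal sum of the members, an alternative chosen after seeing the data, 22 fell and 21 rose, 24 and 25, 19 and 18, and 18 and 18, in the same order, by construction of that scaling. Without the replicate block, 57, 62, 66 and 56 fell. The median of all tested rows moved from a mean of −0.135 over the 4 comparisons to −0.032 for FPKM without the authors' normalization, −0.027 with median-of-ratios factors and 0.623 with the equal sum, and the members' median stayed between −1.33 and −0.71 under the other alternatives.

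The smaller comparisons were less stable, and the cause was not tested. For Nutridoma against DMSO in HL-60 cells, the 7 that rose became 1 for FPKM without the authors' normalization (where 1 fell), 1 with no filter, 1 without the block, and 0 to 12 with a library left out (0 to 1 fell); 4 fell with the equal sum. In PLB-985 cells 2 rose with the equal sum, and 0 were called with any library left out. Over both lines, 5 fell for FPKM without the authors' normalization, 0 fell and 1 rose with no filter, 0 and 0 without the block, 7 and 12 with the equal sum, and 0 to 5 in each direction with a library left out. Between the lines, undifferentiated, 0 were lower with no filter and 0 lower and 2 higher without the block, 4 lower with the equal sum, and 0 to 2 lower and 4 to 7 higher with a library left out. After DMSO, 2 were higher without the block, 8 lower with the equal sum, and 0 to 1 lower and 3 to 6 higher with a library left out. With DMSO and Nutridoma, 4 were lower for FPKM without the authors' normalization, 2 with no filter and 1 (with 2 higher) without the block, and 2 to 17 lower and 1 to 4 higher with a library left out. Off chromosome 8, an alternative chosen after seeing the data, 1, 1 and 0 members were higher in the 3 states. The members' median ranged from −0.384 to −0.077 for Nutridoma against DMSO in PLB-985 cells, from 0.046 to 0.319 in HL-60 cells, and from −0.415 to −0.079 between the lines with DMSO and Nutridoma, the equal sum aside. The tests of whether the lines differed in what DMSO or Nutridoma changed called 0 to 1 member with a library left out. Counting rows with an NCBI gene ID only, the members' share was 18.58% in PLB-985 cells with DMSO and 26.7% in undifferentiated HL-60 cells. RPS27 turned to 0.019 and 0.046 in PLB-985 cells with DMSO (FPKM, median-of-ratios) and RPS27L to 0.047 and 0.012 with DMSO and Nutridoma; in HL-60 cells with DMSO and Nutridoma, RPS27 went from −0.347 to 0.075 (0.075 and 0.043 without replicate 1 of undifferentiated or Nutridoma cells) and RPS27L from −0.499 to 0.093 with a library left out. Of 1729 values of the 91 gene results under alternatives, 1528 kept their direction and call, 189 lost the call, 5 gained one and 7 turned. No limit of detection can be given without read counts.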
